A study of Mus musculus with 2 samples.

Results

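The levels of 36 imprinted mouse genes, of 43346 mouse gene rows measured, were read from total RNA of the embryonic heart at day 12.5. The genes were chosen by name, leaving out the Igf2 axis, and were found by their Ensembl identifiers through the GENCODE M21 annotation. All 36 had a row in the gene and transcript tables of both libraries. The study made 2 libraries, replicate 1 and replicate 2, which its labels call biological replicates of 1 group. Both came from hearts of pooled male and female embryos of the inbred B6NCrl strain, with no treatment given in the labels and with synthetic ERCC spike-in RNAs added. The input of each was 10 ng of RNA, size-selected above 200 nt. There was no second condition, so nothing here is a response and no p-value is given. Values are in TPM, a transcript abundance scaled by length and library size, so that genes of unequal length can be set side by side.

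An imprinted gene is transcribed mainly from the copy inherited from 1 parent, because DNA methylation laid down in the egg or sperm marks the copies differently. Imprinted genes lie in clusters, where a methylated control region and often a long noncoding RNA set which neighbours are silent on each chromosome. Many act on growth of the embryo and placenta, with paternally expressed members tending to promote it and maternally expressed members tending to restrain it. The parental copy given for each gene below is such background. The embryos were inbred and the tables carry no allelic values, so the copy in use was not measured.

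Some imprinted genes have several start sites, and the estimated transcript levels were summed by the start annotated for each transcript. The 5′ ends of the RNA were not measured, and transcripts of 1 gene have reads in common. The promoters of Mest, Grb10 and Gnas are shown because of their estimates. Each of these genes, among the 5 highest, had nearly all of its TPM in transcripts annotated near 1 of the starts that RefSeq lists. Each sequence is from RefSeq on build GRCm38.p6, runs from 250 bases before to 50 bases after the start, and is read 5′ to 3′ on the gene's own strand. Capitals mark TGCCGC or its reverse complement GCGGCA, the letters bound by ZFP57, a zinc finger protein that protects imprints when they are methylated.
Mest start 30738050, chr6:30737800-30738099, plus strand: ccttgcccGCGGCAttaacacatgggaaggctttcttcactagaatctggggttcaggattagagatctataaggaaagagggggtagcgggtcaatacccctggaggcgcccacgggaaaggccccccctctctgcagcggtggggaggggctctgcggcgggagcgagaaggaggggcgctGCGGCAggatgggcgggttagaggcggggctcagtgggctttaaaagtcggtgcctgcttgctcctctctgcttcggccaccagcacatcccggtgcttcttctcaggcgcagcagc
Mest start 30733506, chr6:30733256-30733555, plus strand: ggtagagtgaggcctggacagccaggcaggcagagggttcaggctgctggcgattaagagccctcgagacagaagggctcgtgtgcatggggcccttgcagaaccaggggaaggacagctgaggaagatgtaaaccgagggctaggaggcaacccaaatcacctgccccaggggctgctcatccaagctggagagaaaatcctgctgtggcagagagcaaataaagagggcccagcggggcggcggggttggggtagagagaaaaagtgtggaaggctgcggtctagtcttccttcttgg
Grb10 start 12037420, chr11:12037371-12037670, minus strand: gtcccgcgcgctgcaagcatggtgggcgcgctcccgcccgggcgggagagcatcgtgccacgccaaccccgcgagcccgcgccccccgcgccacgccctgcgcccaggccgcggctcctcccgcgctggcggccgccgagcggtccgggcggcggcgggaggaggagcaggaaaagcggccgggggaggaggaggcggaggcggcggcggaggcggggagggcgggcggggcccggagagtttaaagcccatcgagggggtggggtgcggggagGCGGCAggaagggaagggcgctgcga
Grb10 start 12027971, chr11:12027922-12028221, minus strand: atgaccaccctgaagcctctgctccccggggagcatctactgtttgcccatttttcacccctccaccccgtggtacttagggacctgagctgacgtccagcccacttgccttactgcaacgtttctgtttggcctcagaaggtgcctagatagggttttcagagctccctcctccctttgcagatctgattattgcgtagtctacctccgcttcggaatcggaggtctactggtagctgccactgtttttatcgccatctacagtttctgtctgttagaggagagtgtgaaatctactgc
Gnas start 174330006, chr2:174329756-174330055, plus strand: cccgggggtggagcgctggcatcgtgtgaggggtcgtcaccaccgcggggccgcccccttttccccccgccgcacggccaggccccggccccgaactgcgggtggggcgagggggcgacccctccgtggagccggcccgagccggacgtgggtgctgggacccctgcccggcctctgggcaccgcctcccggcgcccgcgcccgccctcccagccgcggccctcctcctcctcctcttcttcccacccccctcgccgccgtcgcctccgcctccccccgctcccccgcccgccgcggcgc
Gnas start 174284320, chr2:174284070-174284369, plus strand: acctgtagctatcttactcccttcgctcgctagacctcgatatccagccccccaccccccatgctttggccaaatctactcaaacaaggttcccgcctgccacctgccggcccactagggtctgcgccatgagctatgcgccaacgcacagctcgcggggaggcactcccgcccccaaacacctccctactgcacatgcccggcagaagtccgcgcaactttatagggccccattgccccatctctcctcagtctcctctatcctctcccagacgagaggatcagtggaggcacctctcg
The first sequence of each gene is at the start with most of the estimated TPM, and is called the used promoter below. Transcripts starting within 1000 bases of Mest position 30738050 held 2813 TPM in replicate 1 and 3058 TPM in replicate 2, which is 98.9% and 98.8% of the gene. Those at position 30733506 held 0.18 and 1.13 TPM. The used promoter had 2 matches to the ZFP57 letters and a ratio of observed to expected CpG pairs of 0.59, and the little used one had 0 matches and a ratio of 0.327. In Grb10, transcripts at position 12037420 held 647 TPM in each library, 95.5% and 97.3% of the gene, against 20.3 and 12.0 TPM at position 12027971. Its used promoter had 1 match and a CpG ratio of 0.973, and the other had 0 matches and 0.446. In Gnas, the start that makes the stimulatory G protein alpha subunit, at position 174330006, held 1164 and 1162 TPM. The start of the neuroendocrine protein NESP55, at position 174284320, held 1.28 and 1.09 TPM. The start of exon 1A, at position 174327749, lay between them with 8.79 and 6.67 TPM. Both printed Gnas promoters had 0 matches, and their CpG ratios were 0.839 at the used start and 0.65 at the NESP55 start. The exon 1A promoter, not printed, also had 0 matches, and its CpG ratio of 0.871 was above that of the used start. A match is a description of these letters and shows no binding.

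Several members, noncoding ones and also the protein-coding Mest and Usp29, are hosts of microRNAs, which lie inside them on the same strand. Rtl1 lies opposite others. Mature microRNAs are far shorter than the RNA that was sequenced, so the values below are of the host RNAs and not of mature microRNAs. The mature sequences of 4 such microRNAs are shown from RefSeq, on GRCm38.p6, because their hosts or partners are described below. Capitals mark the seed, bases 2 to 8, with which a microRNA pairs to its targets.
mmu-miR-335-5p, chr6:30741314-30741336, plus strand: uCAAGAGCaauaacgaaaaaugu
mmu-miR-675-5p, chr7:142577112-142577133, minus strand: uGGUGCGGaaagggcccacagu
mmu-miR-770-5p, chr12:109563710-109563731, plus strand: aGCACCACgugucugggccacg
mmu-miR-127-3p, chr12:109592888-109592909, plus strand: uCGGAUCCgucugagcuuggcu
The first is carried by Mest, the next by H19 and the next by Meg3, each on the host's strand, and miR-127 lies opposite Rtl1. The 4 seeds all differ. The gene rows of these 4 hairpins were listed at 0 TPM in both libraries. That of Mir134, inside Mirg, had 0 TPM in replicate 1 and 15.5 TPM in replicate 2, and its reads cannot be told apart from those of its host. From Dlk1 to the end of Mirg, chr12:109452823-109749460, the RefSeq table listed 57 hairpins over 296638 bp. Of these, 54 were on the plus strand, the strand of Meg3, Rian and Mirg, and 25 lay inside the body of a member. Mirg held 14 of them on its own strand, Rian 3 and Meg3 1, while Rtl1 had 1 on its own strand and 6 opposite. The 57 hairpins gave 111 mature names with 102 distinct seeds, of which 9 were shared, AUGUAAC for instance by miR-379-3p and miR-411-3p.

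Replicate 1 had 34751234 estimated reads and replicate 2 had 31847875. Mouse genes received 33480066 and 30665239 of them, and the imprinted genes took 1.34% and 1.39% of those. The floor of 3 reads stood at 0.09 CPM in replicate 1 and 0.098 CPM in replicate 2, for counting error only. Heart identity was plain, with all 10 heart muscle markers detected and a sum of 36619 and 36946 TPM. The libraries differed in liver markers: all 12 were higher in replicate 1, with sums of 205 and 44.4 TPM, and none was at 0 in both libraries. Of 10 neural markers 3 were detected, with sums of 15.0 and 13.4 TPM. Of 5 skeletal muscle progenitor markers only Myog was detected, and they summed to 1.58 and 2.12 TPM. Of 8 trophoblast and yolk sac markers only Plac1 was detected, and 3 were at 0 in both libraries (Cdx2, Tpbpa and Prl3d1).

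Most of the imprinted genes were expressed in the heart. Detection was set at a level of at least 1 TPM in each of the libraries, and 31 of the 36 passed (86.1%). The same held for 31.8% of all mouse genes, for 57.5% of nuclear protein-coding genes and for 11.0% of long noncoding genes. The median level of the 36 was 33.8 TPM, against 0.055 TPM over all mouse genes and 3.64 TPM over nuclear protein-coding genes. Levels of 100 TPM or more were reached by 11 members (30.6%) and by 6.43% of nuclear protein-coding genes. Among the 30 protein-coding members 25 were detected, with a median of 30.0 TPM. All 6 noncoding members were detected, with a median of 39.7 TPM. These genes were chosen as well-studied imprinted genes, so these shares describe the list and were not tested against other lists.

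**Figure D1:**
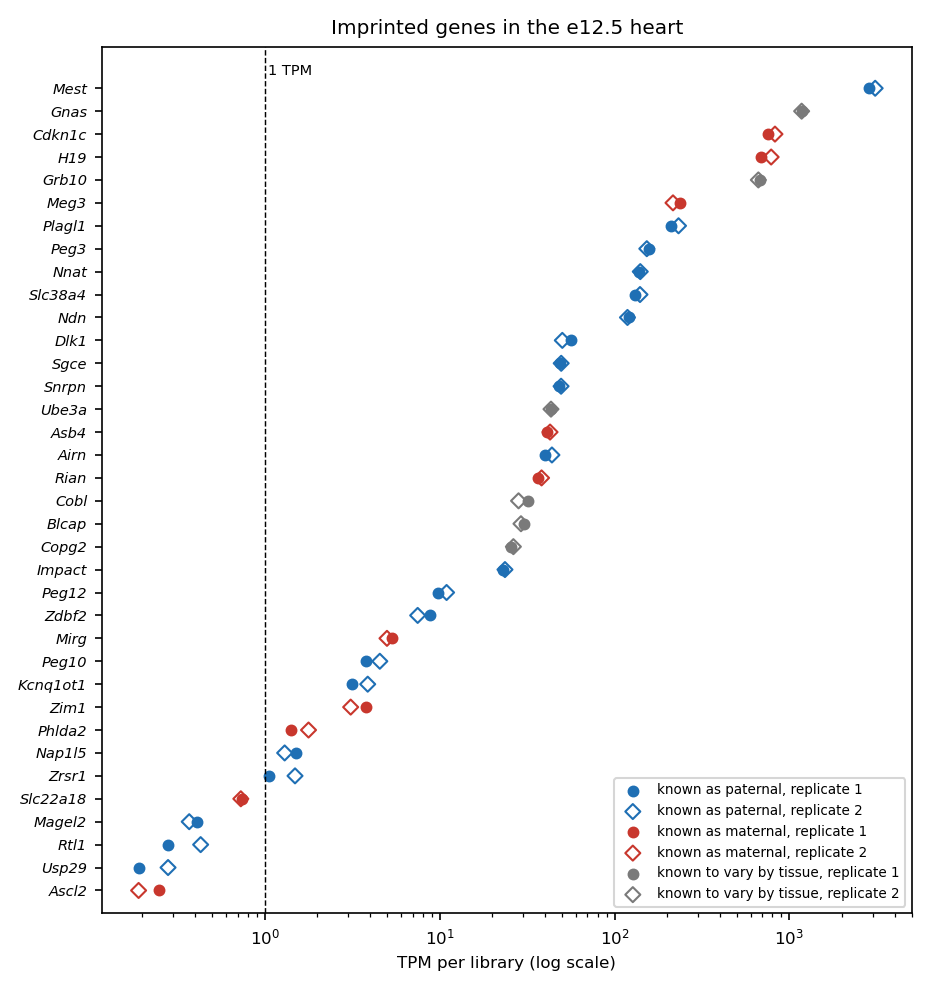
Level of each of the 36 imprinted genes in TPM (log axis), with replicate 1 as filled circles and replicate 2 as open diamonds, coloured by the parental copy known to be expressed. The genes run from Mest, at 2846 and 3094 TPM, to Ascl2, at 0.25 and 0.19 TPM, and the last 5 lie left of the dashed line at 1 TPM.

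Grouped by the copy known to be expressed, 17 of 20 paternally expressed, 8 of 10 maternally expressed and all 6 genes whose copy varies by tissue were detected. Paternally expressed genes summed to 3847 TPM in replicate 1 and 4126 TPM in replicate 2, which is 51.0 ± 0.65% of the summed level of the 36 (SD, n = 2, as for all later errors). Mest alone made up most of this sum. Maternally expressed genes summed to 1772 and 1921 TPM, or 23.6 ± 0.48%, nearly all of it from Cdkn1c, H19 and Meg3. Genes whose copy varies by tissue summed to 1990 and 1967 TPM, or 25.3 ± 1.1%, mostly Gnas and Grb10. Grb10, at a mean of 671 TPM, is counted here although it is known for maternal expression in most tissues. The maternal and variable shares depend on this choice, and no other grouping was run. The medians were 32.6 TPM for paternally expressed, 21.3 TPM for maternally expressed and 36.8 TPM for variable genes. The groups lay closer in these medians than in their sums, which also depend on how many genes each group holds.

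The cluster of Mest on chromosome 6 held the highest level. Mest (ENSMUSG00000051855.11, chr6:30723547-30748465), a paternally expressed gene of embryonic mesoderm that encodes a protein of the alpha/beta hydrolase fold, had 2846 TPM in replicate 1 and 3094 TPM in replicate 2. It was above 99.9% of nuclear protein-coding genes. Its neighbour Copg2, which encodes a subunit of the COPI vesicle coat and is transcribed towards it, had 25.62 and 26.41 TPM. Mest was 114 ± 4.3-fold above Copg2. Their last exons overlap over 912 bp on opposite strands, and no source used here says whether the libraries keep strand, so reads there cannot be told apart. The posterior SD of the read count, a measure of doubt in assigning reads, was 0.97% and 1.0% for Copg2.

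Gnas and Grb10, which act in hormone and growth factor signalling, were the highest genes whose expressed copy depends on the tissue. Gnas (ENSMUSG00000027523.15, chr2:174284320-174346744), whose main product couples receptors to cyclic AMP production, had 1180 and 1175 TPM. The 2 libraries were nearly equal. Grb10 (ENSMUSG00000020176.13, chr11:11930508-12038683), an adaptor that dampens insulin and IGF receptor signalling, had 677.8 and 664.6 TPM. It is known for maternal expression in most tissues and paternal expression in neurons. Cobl, an actin nucleator in the same cluster, had 32.16 and 28.27 TPM, and Grb10 was 22.3 ± 1.7-fold above it.

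Among the imprinted genes chosen from the Kcnq1ot1 cluster on chromosome 7, Cdkn1c carried almost all of the summed TPM. Cdkn1c (ENSMUSG00000037664.8, chr7:143458339-143461050), the maternally expressed cyclin-dependent kinase inhibitor p57, had 756.5 TPM in replicate 1 and 827.1 TPM in replicate 2. The other maternally expressed genes chosen from the cluster, Phlda2, Slc22a18 and Ascl2, were below 2 TPM in both libraries. Of them Phlda2 alone passed the detection bound. Kcnq1, Cd81 and Nap1l4, given below, were higher and are counted among the neighbours of the clusters. Phlda2, a PH domain protein that limits placental growth, had 1.42 and 1.78 TPM on 22 and 25 reads. Slc22a18, a membrane transporter, had 0.74 and 0.73 TPM, and Ascl2, a transcription factor needed in the placenta, had 0.25 and 0.19 TPM on 9 and 6 reads. Cdkn1c was 499 ± 48-fold above Phlda2 and 1078 ± 78-fold above Slc22a18. Against Ascl2 the 2 libraries gave ratios of 3026 and 4353, an imprecise value since so few reads fell on that gene.

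Kcnq1ot1 (chr7:143203458-143296549), the long noncoding RNA that silences this cluster on the paternal chromosome, had 3.16 and 3.88 TPM. It is transcribed from inside Kcnq1, a potassium channel gene, in the opposite direction. Kcnq1 itself had 10.52 and 12.84 TPM, and the ratio of Kcnq1ot1 to Kcnq1 was 0.301 ± 0.0013. Reads of unspliced Kcnq1 RNA cannot be told apart from it where strand is unknown. The per-length level of Kcnq1ot1 is spread over an effective length of 84296 bases. In estimated reads it had 6302.86 and 6987.81, rank 10 among the 36 genes by reads and rank 27 by TPM. Without scaling by length Kcnq1ot1 lay above Kcnq1 instead, by 3.32 on the log2 scale.

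H19 (ENSMUSG00000000031.11, chr7:142575529-142578143), the maternally expressed noncoding RNA of the neighbouring domain and a growth restraint, had 689.8 TPM in replicate 1 and 786.4 TPM in replicate 2. It was the highest noncoding member. Its partner in that domain, the growth factor gene Igf2, had 1064.03 and 1091.9 TPM, and the ratio of H19 to Igf2 was 0.684 ± 0.051.

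The Dlk1-Meg3 cluster on chromosome 12 was led by its noncoding RNA. Meg3 (ENSMUSG00000021268.13, chr12:109541001-109571726), a maternally expressed RNA that opens the transcribed microRNA region, had 236.3 and 216.0 TPM. Rian, a host of small nucleolar RNAs further along, had 36.62 and 38.27 TPM. Mirg, the microRNA host at the end, had 5.31 and 5.0 TPM. Each step along the strand was lower, with Meg3 6.05 ± 0.57-fold above Rian and Rian 7.28 ± 0.54-fold above Mirg. All 3 are annotated as separate genes, and their unspliced RNA was not measured apart.

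The paternally expressed genes of that cluster lay below Meg3. Dlk1 (chr12:109452823-109463336), a transmembrane protein with EGF repeats that resembles Notch ligands, had 56.55 TPM in replicate 1 and 50.3 TPM in replicate 2. Meg3 was 4.24 ± 0.081-fold above Dlk1. Rtl1, a protein derived from a retrotransposon and needed in the placenta, had 0.28 and 0.43 TPM on 41 and 58 reads, between the bounds for detected and not detected. The hairpin of miR-127, printed above, lies opposite Rtl1 and is known to be transcribed from the maternal copy.

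The Snrpn cluster on chromosome 7 showed a wide spread among genes of like imprint. Ndn (ENSMUSG00000033585.4, chr7:62346569-62350262), a growth-restraining protein of the MAGE family, had 121.5 and 118.6 TPM. Its MAGE relative and neighbour Magel2 had 0.41 and 0.37 TPM. Ndn was 308 ± 17-fold above Magel2, although both are known to be expressed from the paternal copy. Peg12, a relative of the Frat proteins that bind the kinase GSK3, had 9.76 and 10.96 TPM, so that Ndn was 11.6 ± 1.1-fold above it. Snrpn, a spliceosome protein, had 48.0 and 49.48 TPM, and it shares 216 bp of exon on the same strand with Snurf. Snurf, nested in Snrpn, had a row of its own at 32.3 and 36.0 TPM, which the Snrpn value leaves out. Ube3a, the ubiquitin ligase that is maternally expressed in neurons, had 43.42 and 43.33 TPM, and it shares 1803 bp of exon on opposite strands with the noncoding Snhg14. Snrpn was 1.12 ± 0.026-fold above Ube3a, the smallest ratio of the 25 pairs. This pair and that of Sgce and Asb4 pass only with both libraries. In reads not scaled by length both reverse, to -1.28 and -0.74 on the log2 scale.

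In the Peg3 cluster on chromosome 7 adjacent genes lay far apart in level. Peg3 (ENSMUSG00000002265.11, chr7:6703892-6730431), a paternally expressed zinc finger protein, had 156.9 TPM in replicate 1 and 153.0 TPM in replicate 2. Usp29, a gene of the ubiquitin protease family that begins 146 bp away on the other strand, had 0.19 and 0.28 TPM on 11 and 15 reads. The ratio of Peg3 to Usp29 was 826 in replicate 1 and 546 in replicate 2. No quantified transcript of Usp29 starts at its RefSeq start, so RNA of its upstream exons would not be counted as Usp29. Zim1, a maternally expressed zinc finger gene on the other side, had 3.78 and 3.1 TPM, and Peg3 was 45.4 ± 5.5-fold above it.

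The pair of genes that diverge at the Peg10 control region also differed. Sgce, epsilon-sarcoglycan of the muscle membrane complex, had 48.48 and 49.57 TPM. Peg10, a protein derived from a retrotransposon and essential in the placenta, had 3.79 and 4.55 TPM, although its gene begins 98 bp away. Sgce was 11.8 ± 1.3-fold above Peg10, and both are known as paternally expressed. Asb4, a maternally expressed ankyrin repeat and SOCS box protein in the same cluster, had 41.22 and 42.8 TPM, and Sgce was 1.17 ± 0.013-fold above it.

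Nnat and Blcap form a small domain on chromosome 2 in which Nnat lies inside an intron of Blcap. Nnat, neuronatin, a small membrane protein of the endoplasmic reticulum best known in brain, had 138.0 TPM in replicate 1 and 140.4 TPM in replicate 2. Blcap had 30.2 and 29.18 TPM. Nnat was 4.69 ± 0.17-fold above its host gene. A pair of similar nested genes gave the opposite order. Nap1l5, inside Herc3, had 1.51 and 1.3 TPM against 30.01 and 29.31 TPM for Herc3, and Zrsr1, inside Commd1, had 1.06 and 1.49 TPM against 241.12 and 257.15 TPM for Commd1. Nap1l5 was 21.2 ± 1.9-fold below Herc3, and Zrsr1 was 200 ± 39-fold below Commd1. Unspliced RNA of a host gene cannot be told apart from these nested genes where strand is unknown.

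Of the remaining paternally expressed genes, Plagl1, a zinc finger transcription factor also called Zac1, had 209.5 and 232.3 TPM. Slc38a4, an amino acid transporter, had 130.5 TPM in replicate 1 and 139.9 TPM in replicate 2. Impact, which restrains the amino acid sensor Gcn2, had 22.9 and 23.64 TPM, and Zdbf2 had 8.76 and 7.49 TPM. Airn, the noncoding RNA that silences Igf2r on the paternal chromosome, had 40.01 and 43.87 TPM, from 860 reads in each library. Its body spans 118826 bp but its annotated transcripts had an effective length of only 909.7 and 917.8 bases, so the value speaks for those transcripts and not for the unspliced RNA. Igf2r, which is read across it in the other direction, had 241.21 and 255.28 TPM, and Airn was 5.92 ± 0.15-fold below it. Their annotated exons share 0 bp. Reads of unspliced Igf2r RNA cannot be told apart from Airn where the genes overlap and strand is unknown.

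**Figure D2:**
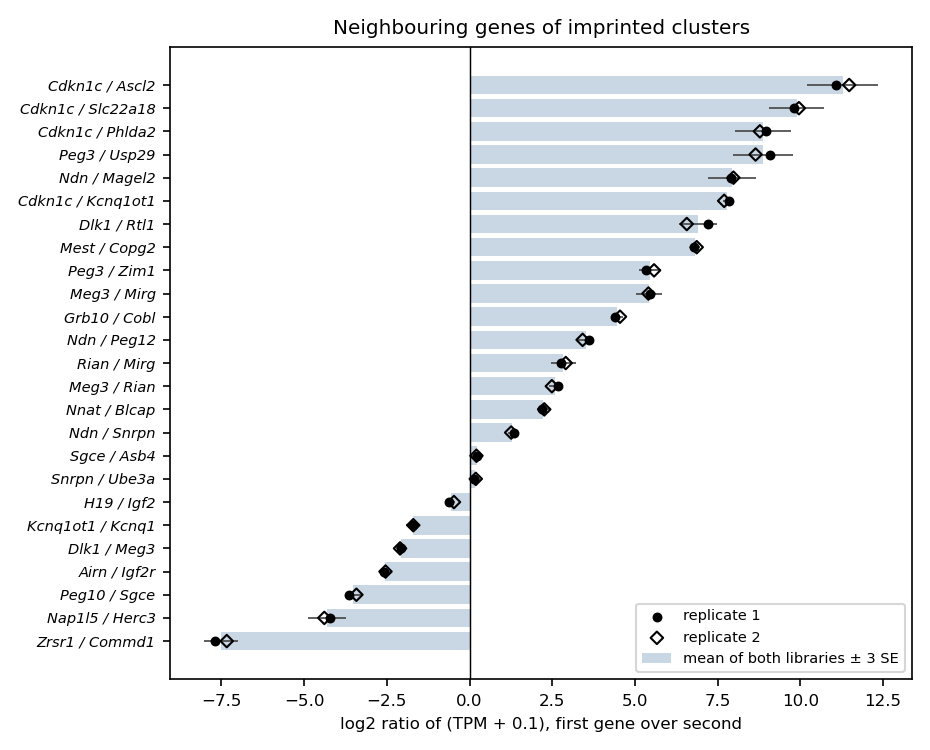
Ratio of the first named gene over the second, as log2 of TPM + 0.1, for 25 pairs of neighbouring genes, in replicate 1 (filled circles) and replicate 2 (open diamonds), with bars for the mean and lines for 3 standard errors. The 18 ratios on the right are above 0 and the 7 on the left below it, from Cdkn1c over Ascl2 at 11.28 to Zrsr1 over Commd1 at -7.52.

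Each of the 25 ratios kept its sign across libraries and had a mean beyond 3 standard errors, 18 in favour of the first gene and 7 of the second. Even a 1.12-fold ratio passed this rule. It was not run on other gene pairs of these data, so the count has no background and shows nothing particular to imprinted clusters. The standard error came from how far similarly abundant genes differed between libraries. The pair's own spread and any error of length or read assignment are not part of it. With the 36 genes in order of level, 20 of the 35 neighbouring pairs in that order did not lie apart by the same rule. Among the highest genes, steps that passed this rule stood after Mest, Gnas, H19 and Grb10. The step after H19 was uneven between the libraries. H19 and Grb10 had 689.8 and 677.8 TPM in replicate 1, and 786.4 and 664.6 TPM in replicate 2. H19 also differed between libraries past the spread from which the standard error was taken. From Dlk1 to Snrpn, and from Ube3a to Rian, neighbours in the order did not lie apart. All 5 genes below the detection bound lay between 0.19 and 0.74 TPM in each library, and none was under 0.1 TPM in both.

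Between the libraries the imprinted genes were close. Of the 34 with at least 20 reads on average, the median of replicate 2 over replicate 1 was 0.04 on the log2 scale, against 0.02 over all 15154 genes tested. Values ran from -0.28 for Zim1 to 0.48 for Rtl1. H19 and Kcnq1ot1 lay more than 3 robust SD from genes of like abundance, 2 of 34, where the share was 1.93% of all genes tested. H19 was higher in replicate 2 by 0.19 (bin SD 0.053) and Kcnq1ot1 by 0.29 (bin SD 0.059). Kcnq1 differed by the same 0.29 but stayed within the wider spread of genes of its lower read count. With read counts scaled by TMM factors or DESeq2 size factors, 4 members passed, where the share was 1.53% of all genes tested with either scaling. The others were Dlk1 at -0.28 and Meg3 at -0.18, both lower in replicate 2. In TPM, Dlk1 differed by -0.17 and Meg3 by -0.13 and neither passed. No member differed by 2-fold or more, against 1.17% of all genes tested.

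The libraries also differed in other tissues' markers over these same samples. Of 12 liver markers, 11 were lower in replicate 2 past the spread, with a median of -2.15 on the log2 scale, and 7 were detected in both. Afp had 99.3 TPM in replicate 1 and 18.24 TPM in replicate 2, and Alb had 9.23 and 1.85 TPM. Erythroid markers summed to 34344 and 30807 TPM, with 3 of 7 lower in replicate 2 past the spread, and fibroblast markers to 1583 and 1518 TPM, with 2 of 8. The 7 endothelial markers summed to 484 and 510 TPM with none past the spread. Their part in the values of Dlk1, Meg3, H19 and Kcnq1ot1 was not tested. In whole hearts, fewer cells of a type and less RNA per cell cannot be told apart.

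**Figure D3:**
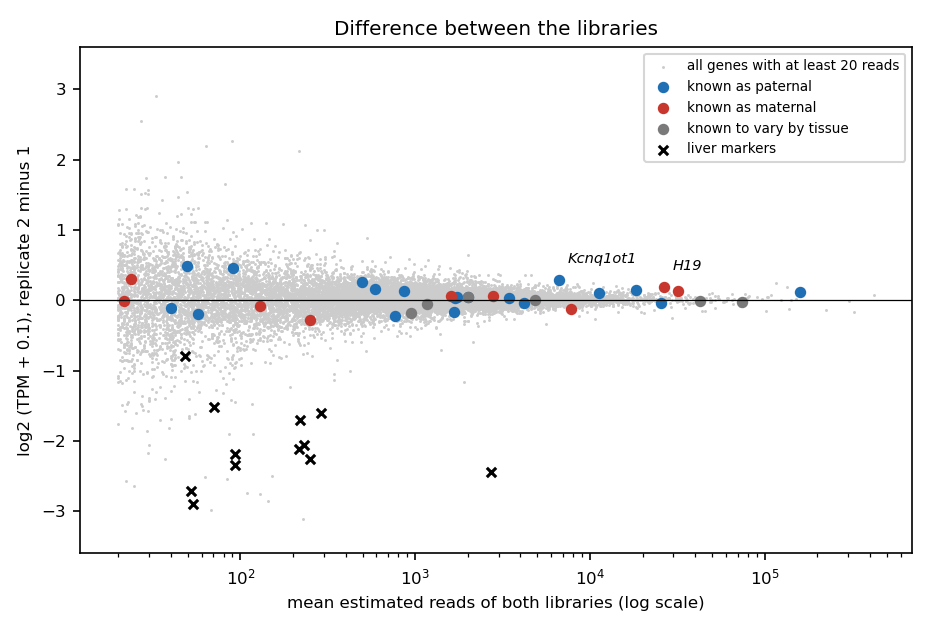
Difference between the libraries, as log2 of TPM + 0.1 in replicate 2 minus replicate 1, against the mean estimated reads (log axis) of each gene with at least 20 reads, with 8 genes beyond 3.6 in either direction not drawn. Imprinted genes, coloured by expressed copy, lie near 0 with H19 and Kcnq1ot1 named, and the crosses of the 12 liver markers all lie below 0.

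Within genes, the transcript in the lead did not change between libraries. Of the imprinted genes, 18 reached 10 TPM and had 2 or more transcripts holding 1% of the gene each, and 18 of 18 had the same leading transcript in both, as did 94.0% of the 5999 genes tested in this way. The leading transcript held a median share of 70.4% in the imprinted genes and 67.1% over all genes tested. Mest was made almost wholly as 1 transcript, with 96.9% and 96.8%. H19 was divided among 3, whose shares were 40.9% and 39.8%, 30.9% and 30.5%, and 28.2% and 29.7%. In Sgce a transcript annotated as retaining an intron held 34.1% in replicate 1 and 10.0% in replicate 2, while the leading transcript held 50.6% and 61.0%. Such shares are estimates from reads that overlapping transcripts have in common.

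Start sites are given for genes with more than 1 listed, as shares of the estimated TPM of transcripts annotated near each. In Meg3, transcripts within 1000 bases of the second listed start, at position 109545398, held 22.7% and 26.4%. The transcript that begins at that position held only 1.69% and 1.81%. Most of the share belonged to other transcripts, which begin at positions 109546391 and 109544498. Asb4 drew 89.3% and 89.9% from its first start and Slc38a4 95.8% and 93.7% from its leading one. No quantified transcript begins within 1000 bases of the Slc38a4 start at position 97031213, so its use was not measured. Snrpn drew 99.2% and 100% from the start at position 60005199, and its start at position 60140225 held 0.812% and 0%. No quantified transcript begins within 1000 bases of its starts at positions 60047978 and 60450177, so their use was not measured. In Cobl, transcripts at the leading listed start held 24.7% and 30.0%, and the remaining 75.3% and 70.0% began at places that the RefSeq table does not list within 1000 bases. Zdbf2, not drawn in the figure, had 100% at position 63273269 in both libraries. No quantified transcript begins within 1000 bases of its start at position 63200358, so the use of that start was not measured.

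**Figure D4:**
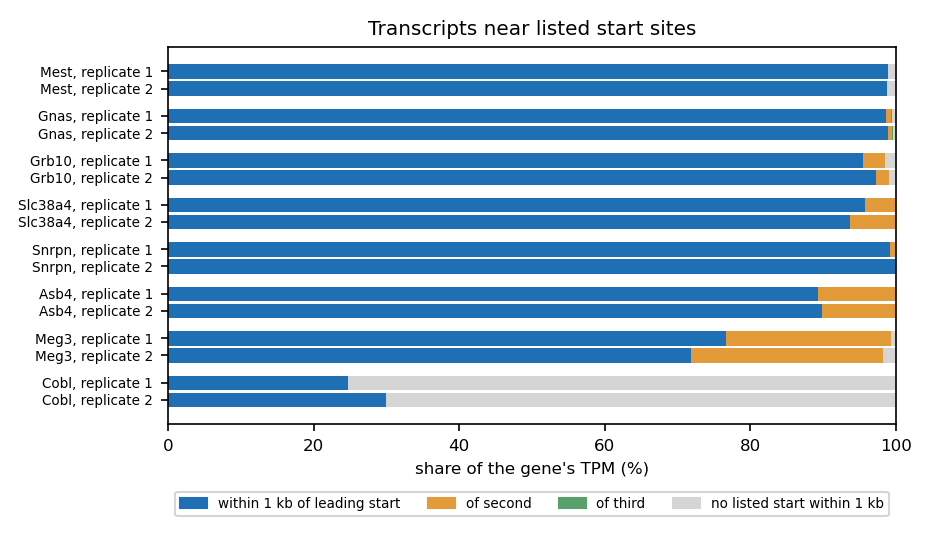
Share of each gene's TPM, in percent, from transcripts that begin within 1 kb of each listed start site, for 8 imprinted genes with more than 1 listed start and each library. The leading start fills most of the bar from Mest to Asb4, Meg3 shows 22.7% and 26.4% for transcripts in the window of its second listed start, most of which begin elsewhere in that window, and Cobl is mostly grey for starts not listed.

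The promoters had a higher median CpG ratio than those of all genes. The RefSeq table gave 45 promoters for 30 of the 36 genes, and none for Cdkn1c, H19, Peg10, Sgce, Impact and Rtl1. Their median GC content was 54.7% and their median CpG ratio 0.59, against 52.7% and 0.384 over all 32851 promoters. A ratio of 0.6 or more was found in 22 of 45 (48.9%) and in 35.8% of all promoters. The ZFP57 letters TGCCGC, on either strand, were in 11 of 45 (24.4%) and in 11.6% of all promoters of this length. These letters contain a CpG pair, and the 45 promoters had a median of 12.0 such pairs against 7.0 over all. The shares were not matched for this. The YY1 letters AAGATGGCG were in 1 (2.22%), against 1.4%. The TATA box letters TATAAA were in 10 (22.2%), against 13.6%. Promoters of 1 gene overlap in part, so the 45 are not independent, and no test was made of these shares.

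Most genes listed for imprint maintenance were themselves expressed. The list also holds enzymes of new methylation and of the oxidation of methylated cytosine. Of its 23 genes 21 were detected, where 57.5% of nuclear protein-coding genes were. Their median was 29.2 TPM, against 3.64 TPM over nuclear protein-coding genes. The highest was Trim28, the corepressor recruited by ZFP57, at 186.9 TPM in replicate 1 and 180.6 TPM in replicate 2. Dnmt3a, a methyltransferase for new methylation, had 112.5 and 111.2 TPM. Uhrf1, which guides maintenance methylation, had 72.32 and 74.19 TPM, and the maintenance enzyme Dnmt1 had 64.28 and 65.66 TPM. Zfp57 itself had 52.68 and 48.87 TPM. The germ line cofactor Dnmt3l, at 0.04 and 0 TPM, and the egg factor Dppa3, at 0 and 0.08 TPM, were not detected. Tet1, which oxidises methylated cytosine, was the 1 gene of this list past the spread between libraries, with 19.53 and 23.95 TPM.

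Of 27 further genes in or beside the clusters that had a row, 22 were detected, with a median of 5.96 TPM. Detection held for 31.8% of all mouse genes and for 57.5% of nuclear protein-coding genes, whose median was 3.64 TPM. The 27 genes were led by Cd81, a membrane tetraspanin at the edge of the Kcnq1ot1 cluster, at 571.9 and 578.2 TPM. Commd1 and Igf2r, given above, came next, followed by Nap1l4, a histone chaperone, at a mean of 179 ± 1.46 TPM. The 5 that did not reach 1 TPM in both libraries were Calcr, Slc22a3, Dio3, Nctc1 and Slc22a2. Slc22a2 was at 0 in both libraries, and Dio3, a paternally expressed deiodinase at the far end of the Dlk1-Meg3 cluster, had 0.24 and 0.02 TPM.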

How the data were processed

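Total RNA-seq of 2 libraries of 1 group was analysed. Per the notes deposited beside the tables, the values were made on mm10 with GENCODE M4. The names of aligner and quantifier were not given in the sources used here. RNA extraction was with mirVana, per the labels' protocols; they also cite the manual of a SMARTer low-input kit. Priming, strand and removal of ribosomal RNA are not given. The deposited expected count estimates reads per gene, dividing shared reads. The deposited TPM and FPKM values are scaled by length and library, spike-ins included, and the deposited percent values give each transcript's share of its gene. The deposited posterior means and SDs of counts show doubt in assigning reads. The series title marks the series as superseded.

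The 36 genes, the lists, the 25 pairs and the motifs were chosen with earlier results of these data known; matching RefSeq start sites to GENCODE M21 transcripts was chosen after the data were seen. Every member is named, as is every second gene of a pair, and of the imprint maintenance and cluster neighbour lists the 4 highest and those not detected. Marker genes of other tissues are named as examples; they, Zfp57, Tet1, Snurf and Snhg14 were chosen after their values were seen. Genes were matched by identifier without version, and 42462 of 43346 had a name. Detected means at least 1 TPM in each library, and not detected means under 0.1 TPM in both. Pairs were compared as log2 of TPM + 0.1, which understates ratios of low genes; fold values are ratios of TPM. Spread came from the robust SD between libraries in 20 abundance bins, and the bound was 3 standard errors or SD. Transcript shares used genes at 10 TPM or more. Depth was 34751234 and 31847875 expected counts, so members under 20 reads are imprecise. With 1 group of 2 libraries no count model was fitted: rounded expected counts gave only TMM factors (edgeR 4.0.16) and size factors (DESeq2 1.42.0, R 4.3.3) as alternatives. The labels call the libraries biological replicates but give both the same donor entry and do not mention litters, so the spread may be technical. Python 3.11.15, numpy 2.4.6, pandas 2.3.3 and matplotlib 3.10.9 were used, and the steps were tested on simulated data. Alternatives covered thresholds, pseudocounts, units, scaling, filters and each library alone.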

Additional observations from a re-analysis of the deposited data

How the results depend on the processing

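The count of imprinted genes detected, 31, stayed within 1.5 times under every alternative run: 32 at 0.5 TPM, 25 at 5 TPM, 28 in FPKM, 32 by posterior mean TPM, and 31 with either library left out. Of 25 pairs, 22 lay apart when 2-fold in both libraries was asked, and 23 with either library alone. Without scaling by length 3 pairs reversed, on the log2 scale: Kcnq1ot1 over Kcnq1 to 3.32, Sgce over Asb4 to -0.74 and Snrpn over Ube3a to -1.28. By construction that setting removes the difference in gene length. Over all pairs and alternatives 190 of 200 values kept their direction and side of the bound. The 2 members that differed between libraries became 4 with TMM factors and 4 with DESeq2 size factors, where 1.53% of all genes tested passed, and 0 when a 2-fold change was asked, where 1.17% passed. The first 2 settings leave out each library's effective gene length, which for Dlk1 was 1418 and 1334 bases. The median share of the leading transcript ran from 69.9% to 71.0% with 1 library left out. The paternal share of summed TPM ran from 50.6% to 51.5%, the maternal share from 23.3% to 24.0% and the variable share from 24.5% to 26.1%. No paired analysis was possible because the series has 1 group, so no replicate number pairs samples across groups. Precision is limited by 2 libraries and, for Phlda2, Slc22a18, Usp29 and Ascl2, by few reads.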

Other observations

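The order of the imprinted genes in estimated reads differed from that by TPM for genes with long or short transcripts. Grb10 was second by reads, with a mean of 74118, and rank 5 by TPM. Airn, with short annotated transcripts, was rank 23 by reads and rank 17 by TPM. Ube3a was rank 11 by reads and rank 15 by TPM. These ranks are values only and were not tested.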
